A study of Dugesia japonica with 4 samples.

Results

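The rim of the tissue sections in well B of a planarian head blastema series was compared with the rims in wells C and D. A spot was counted as rim, or edge, when at least 1 of its 6 neighbouring grid positions was off the tissue, and a section was a connected group of at least 5 tissue spots. By this rule, which uses positions alone, well B held 151 edge spots on 12 sections, well C 252 edge spots on 12 sections and well D 278 edge spots on 12 sections. These 681 edge spots on 36 sections were among 1216 tissue spots on 48 sections in the 4 wells of the series, and well A stayed out of the comparison.

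The animals were Dugesia japonica, a freshwater planarian flatworm, with the genotype given as WT, and the tissue was the head blastema at a time labelled 5 dpa. All 4 wells carry these same labels, so wells B, C and D differ by no treatment, strain or stated time. Frozen slices 8 µm thick had been cut along the body axis from front to back, and spaced slices were laid on Visium arrays, where a grid of barcoded spots takes up RNA by its poly(A) tail. The labels do not give the animal, or the level along the axis, from which the slices of each well came. Differences between wells in animal, level, section size and library therefore cannot be told apart. Each well is 1 library and its sections share that library, so the spread of well B between libraries is not known and the comparison is given as a description, with no p-value. The spread between sections and the gap between wells C and D are given beside it.

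A blastema is the mass of new tissue that forms at an amputation wound, and in planarians it is supplied by neoblasts, the dividing stem cells of the body, whose progeny move outward as they mature. In a planarian body the outside is a layer of epidermis over muscle, and the inside holds parenchyma, gut branches and, in the head, the brain and eyes. A rim spot covers a small area at the outline of a section and can take in the outer layers and some deeper tissue at once. The feature lists name gene models by identifier alone, with no symbol, so genes are given by identifier, no cell type is named and nothing is said of their function.

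The rims held 1646634 UMIs (unique molecular identifiers, each a captured RNA molecule) in well B, against 2542059 in well C and 2085141 in well D. The median edge spot carried 10255 UMIs in well B, against 9249 in well C and 6911.5 in well D. The outlines differed in size. Sections of well B had 5 to 22 spots with a median of 17.5, those of well C 20 to 43 with a median of 34.5, and those of well D 31 to 40 with a median of 35.0. Edge spots made up 82.5% of section spots in well B, against 64.5% in well C and 66.5% in well D. An edge spot had on average 3.43 tissue neighbours in well B, against 3.67 in well C and 3.71 in well D. The share of edge spots on the left side (lower array columns) was 53.0% in well B, against 56.3% in well C and 56.5% in well D. With the rims of wells C and D thinned to the UMI total of well B, 14207, 14164 and 14262 gene models had a UMI in wells B, C and D, respectively. The part of these differences in outline and depth in the results below was not tested, except where values for matched spots are given.

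Among gene models of at least 20 CPM (counts scaled to a common library size with TMM factors) as the mean of the 3 rims, more stood lower than higher in the rim of well B. Of 5562 such gene models, 93 were at least 2-fold lower in well B than in well C and than in well D, which is 1.67% of them. Another 9 were at least 2-fold higher in well B than in both, which is 0.162%. Between wells C and D, 47 gene models (0.845%) lay at least 2-fold apart in either direction. Against well C alone 17 were at least 2-fold higher in well B (0.306%) and 112 lower (2.01%), and against well D alone 44 were higher (0.791%) and 211 lower (3.79%). Well C against well D gave 25 higher (0.449%) and 22 lower (0.396%). At least 4-fold apart were 49 gene models between wells B and C, 62 between wells B and D and 5 between wells C and D. At 4-fold or more against both wells, 42 gene models were lower and 1 was higher in well B. At 8-fold or more, 17 were lower and the same single gene model was higher. The split depended on the filter and the scale. It was 59 higher and 170 lower of 9250 at 5 CPM, and 284 higher and 327 lower of 38792 with no filter. The filter uses the mean of the 3 rims. A gene model absent from well B can pass on wells C and D together, while one absent from both must pass on well B alone. The filter therefore lets lower gene models pass more readily than higher ones. With library totals in place of TMM factors, 24 were higher and 77 lower, and the median log2 ratio of all measured gene models moved from -0.02 to 0.13, so levels are given relative to the TMM scale.

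**Figure D1:**
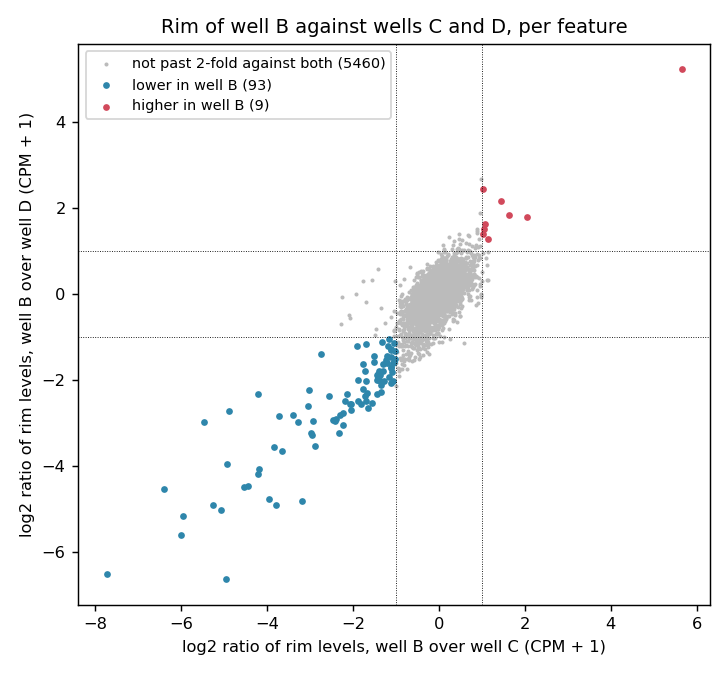
Each point is 1 of 5562 gene models. The x axis is the log2 ratio of its summed rim level in well B over well C and the y axis that over well D, both on CPM plus 1, with dotted lines at 2-fold. The 93 gene models lower in well B stretch far beyond the 2-fold lines at the lower left, while 1 of the 9 higher ones lies beyond 4-fold against both wells.

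The lower genes included scarce and abundant ones. They made up 0.842% of gene models between 20 and 50 CPM, 1.30% between 50 and 100, 3.29% between 100 and 500, and 4.67% (15 of 321) above 500 CPM. Their median rim level was 30.0 CPM in well B, against 153 in well C and 151 in well D. In well B, 12 of the 93 had 3 UMIs or fewer in the whole rim, while none of the 93 had so few in either other well. A UMI of the gene was found in the rim of all 12 sections for 83 of them in well C, 85 in well D and 28 in well B. For 93 of 93 the median over the 12 sections of well B was below the medians of the other wells. The counts that chose the genes also gave these values, which are therefore no separate support. No gene model of the Maker class, the second kind of identifier in the feature lists, was among the 93 or among the 9. This class made up 9793 of 38792 gene models but only 1.17% (well B) to 1.30% (well D) of the rim UMIs of these wells. How many of its members reached 20 CPM was not counted, so their absence may reflect the filter alone.

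The 2 genes named for the low side were nearly absent from well B. DJKW.7916 gave 1 UMI in the rim of well B, against 808 in well C and 282 in well D, or 0.565, 329 and 141 CPM. Its 12 sections ranged from 75.9 to 898 CPM in well C with a median of 271 and from 56.0 to 385 CPM in well D with a median of 105, while 11 of 12 sections of well B had none and the remaining one stood at 11.97 CPM. All 12 sections of well B thus lay below all 24 of wells C and D. The level in well C was 581-fold that in well B with a counting interval (exact binomial, 95%, counting error only) of 104 to 22995, and the level in well D 249-fold with an interval of 44.3 to 9855. A UMI of DJKW.7916 lay in 61.9% of edge spots of well C, 42.1% of those of well D and 0.662% (1 of 151) of those of well B. With spots thinned to 2000 UMIs it lay in 73 of 248 edge spots in well C, 56 of 263 in well D and 0 of 141 in well B, where a count of 0 allows up to 3 spots. The same gene stood higher inside the sections of wells C and D, at 1102 and 999.8 CPM, and gave 1 UMI in the interior of well B. Well A, which was not used in the comparison, had 0 UMIs of it in its rim.

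DJKW.12131 also gave 1 UMI in the rim of well B, against 245 in well C and 150 in well D, or 0.565, 99.7 and 74.7 CPM. Its sections ranged from 35.4 to 326 CPM in well C and from 37.7 to 144 CPM in well D, and 12 of 12 sections of well B stood below the lowest of these 24. The ratio of well C to well B was 176 (counting interval 31.4 to 6992) and that of well D to well B 132 (23.4 to 5258). It is not among the genes of at least 100 CPM counted next. Its interior level was 416 CPM in well C and 528 in well D, with 2 UMIs in the interior of well B and 0 in the rim of well A.

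**Figure D2:**
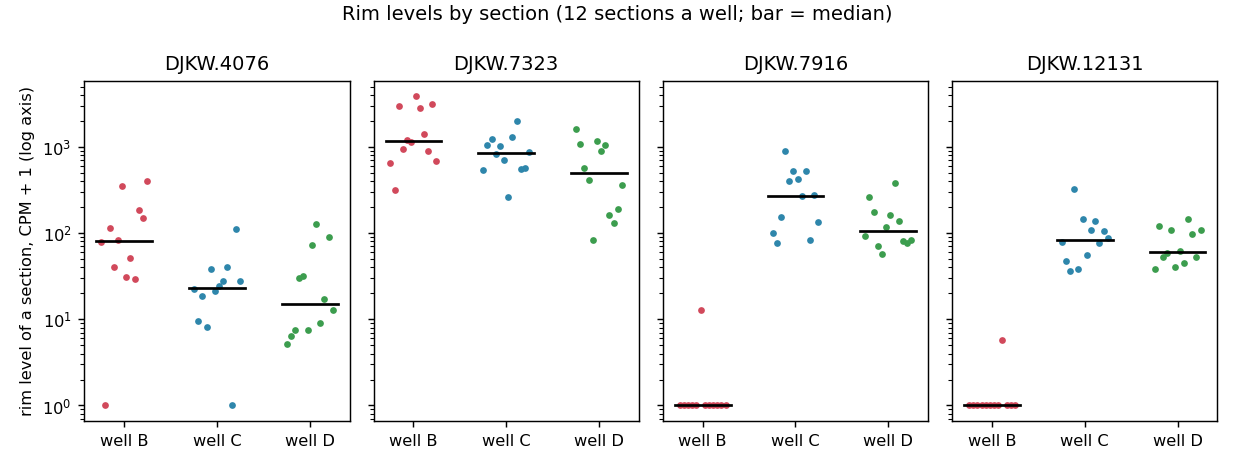
Each point is the summed rim level of 1 section in CPM plus 1, on a log axis, for the 2 genes named on the high side and the 2 on the low side, with 12 sections a well and the median as a bar. The sections of well B overlap those of wells C and D for DJKW.4076 and DJKW.7323 and lie apart from them for DJKW.7916 and DJKW.12131.

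Few genes kept all sections apart. Among 1444 gene models of at least 100 CPM, 5 had every section of well B below every section of wells C and D (0.346%) and 0 had every section above. The 5, named here because their number is small, were DJKW.7916, DJKW.23146, DJKW.28400, DJKW.18416 and DJKW.12737. DJKW.23146 stood at 9.04 CPM in the rim of well B, against 182 in well C and 166 in well D. DJKW.28400 stood at 53.1, 253 and 367 CPM, and DJKW.18416 at 299.6, 704 and 869 CPM. DJKW.12737 was an abundant gene with a small difference, at 1632 CPM in well B, against 2497 in well C and 2175 in well D. Its highest section in well B was at 1812 CPM and the lowest of the other 24 at 1944 CPM, so its sections did not overlap although the wells differed by less than 2-fold. The count was 14 with sections of at least 11 spots alone, 3 with library totals, 35 without well C and 16 without well D.

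Many of the lower genes stood higher inside the sections than at the rim in wells C and D. Interior spots, with tissue on all 6 sides, were not used to choose them. Of the 93, 46 (49.5%) were at least 2-fold higher in the interior than in the rim of both well C and well D, against 178 of 5562 (3.20%) of all measured gene models. Another 8 (8.60%) were at least 2-fold lower inside in both wells, against 637 (11.45%) of all, and 39 were neither. The 46 inside genes had a median log2 ratio at the rim of -2.63, the mean of the log2 ratios of well B over well C and over well D, and 31 of them were at least 4-fold lower. Their median rim level was 24.02 CPM in well B, against 134 in well C and 152 in well D. The 8 outer genes differed by less, with a median log2 ratio of -1.28, none at 4-fold, and median rim levels of 42.4 CPM in well B, against 95.8 in well C and 116 in well D. The other 39 had a median log2 ratio of -1.73, with 11 at 4-fold or more, and median rim levels of 61.0, 213 and 260 CPM.

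The difference was not limited to the rim. In the interior, 178 of 4615 gene models (3.86%) were at least 2-fold lower in well B than in wells C and D and 24 (0.52%) were higher, while 94 (2.04%) lay that far apart between wells C and D. Without well C the counts were 280 lower and 76 higher, and without well D 245 and 55. The interior of well B rests on 32 spots and 490222 UMIs, against 139 spots in well C and 140 in well D. Sections 1, 2 and 10 of well B had no interior spot, while every section of wells C and D had some. The interior of well B therefore covers fewer sections than its rim. Of the 93 genes lower at the rim, 77 were also at least 2-fold lower against both wells in the interior and 91 had the same sign against both. Their median log2 ratio in the interior was -2.55, against -0.11 over all 5562 gene models. Rim and interior come from the same libraries, so the interior is no second sample of the difference.

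The rim of well B was also compared with the others among spots with the same number of tissue neighbours. That number follows the local shape of the outline and does not match spots for their depth inside a section. The 93 genes supplied 1.46% of the rim UMIs of well B, 3.93% of those of well C and 4.99% of those of well D, a description of genes chosen by these counts. Among spots with 1 or 2 tissue neighbours the shares were 0.74%, 1.71% and 1.71%. Among spots with 3 tissue neighbours they were 0.975%, 2.93% and 2.85%, among spots with 4 they were 1.64%, 3.999% and 5.10%, and among spots with 5 they were 2.17%, 5.77% and 8.64%. In each of these wells the share grew with the number of tissue neighbours. It reached 3.32%, 7.86% and 10.8% in the interior spots, which were pooled whatever their depth. At each number of neighbours the share in well B lay below those in wells C and D. Among edge spots with 4 or 5 tissue neighbours alone, 123 gene models were lower in well B and 18 higher, 83 and 6 of them shared with the lists above.

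**Figure D3:**
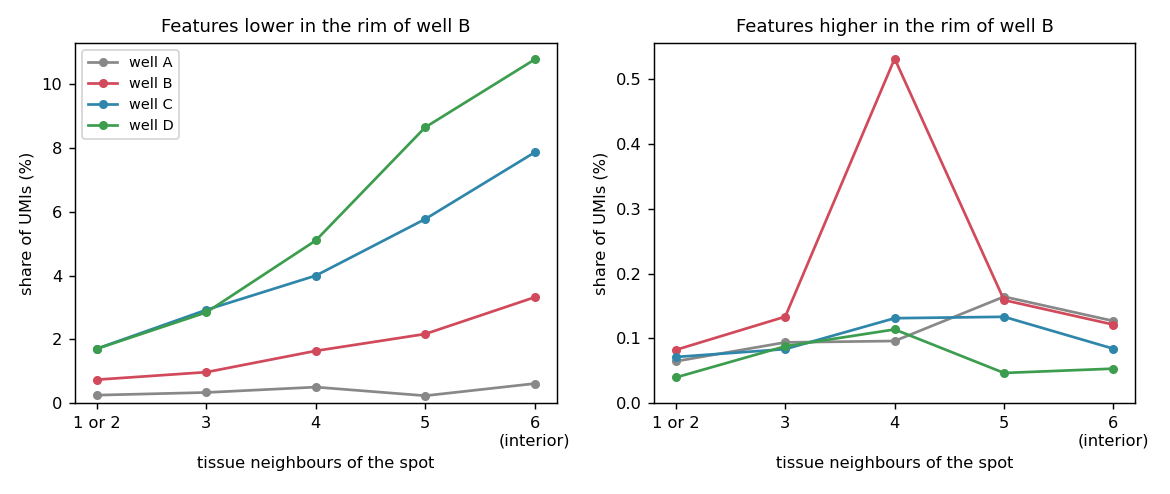
Share of UMIs, in percent, from the 93 gene models lower (left panel) and the 9 higher (right panel) in the rim of well B, for section spots grouped by their number of tissue neighbours; 6 marks interior spots. On the left the line of well B runs below those of wells C and D at every number of neighbours and above that of well A; on the right it peaks at 4 neighbours, at 0.532%.

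By section, the share of the 93 genes in rim UMIs ran from 0.88% to 2.54% in well B with a median of 1.26%. It ran from 1.67% to 6.09% in well C with a median of 3.76% and from 2.67% to 6.96% in well D with a median of 4.91%. The ranges of wells B and D did not overlap, while those of wells B and C did. Within well B the share did not follow the number of spots of a section (Spearman's rho -0.039 over 12 sections of 1 library), and rho was 0.42 in well C and -0.26 in well D. Of 63 lower genes with at least 20 UMIs in the rim of well B, section 8 gave more UMIs than any other section for 30, section 9 for 13 and section 3 for 12. These 3 sections also had the most edge UMIs of well B (240931, 196596 and 221890), and by share section 5 was highest, at 2.54%, while section 9 stood at 1.13%. The 4 sections of well B with 5 to 10 spots, which may be fragments of sections, stood at 0.991% to 1.45%. A further run used only the 4 largest sections of well B (20 to 22 spots) and the 4 smallest of each of wells C and D. The latter had 20 to 29 spots in well C and 31 to 32 in well D, so size was not matched. In that run 131 gene models were lower, 74 of them among the 93, and 24 were higher. Sections of wells C and D as small as those of well B could not be matched, since 1 section in well C and none in well D fell within its range.

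**Figure D4:**
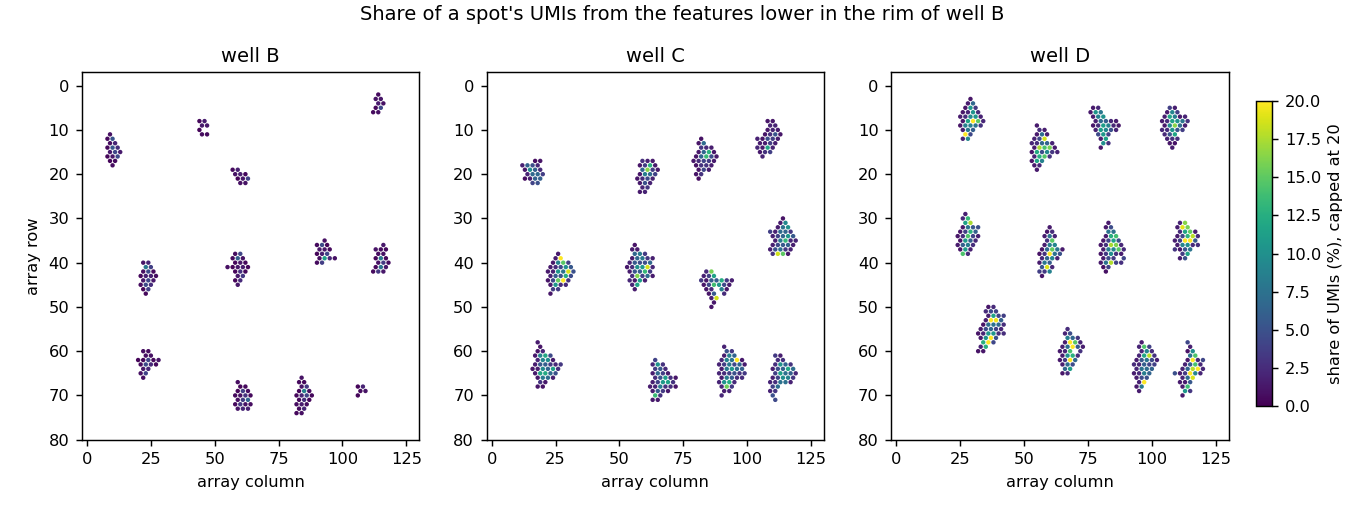
Spots of the 12 sections in each of wells B, C and D, placed by array column and array row and coloured by the share of their UMIs, in percent, from the 93 gene models lower in the rim of well B, capped at 20%. Spots of high share lie in and around the middle of many sections in wells C and D, and the smaller sections of well B show lower shares, with single spots above the rest.

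The lower genes were next read on each side of the outline. At least 2-fold lower against both wells were 79 of the 93 on the left rim, 64 on the right rim and 78 away from the section ends. On the left rim 91 of the 93 had the same sign against both wells, with a median log2 ratio of -1.81, and on the right rim 93 of 93 had it, with a median of -1.89. Away from the section ends, in the middle part of the length, 92 had it with a median of -1.96. These values share spots with those that chose the genes. In all 3 wells the 93 genes took a larger share on the right rim than on the left, 1.86% against 1.22% in well B, 4.14% against 3.15% in well C and 6.11% against 4.09% in well D.

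In well A the 93 genes took 0.371% of rim UMIs and 35 of them had 3 UMIs or fewer there. The median of the 93 was 7.84 CPM in the rim of well A, below the 30.0 CPM of well B. Of the 46 inside genes 20 had 3 UMIs or fewer in the rim of well A, and 9 in that of well B. These levels of well A are scaled to its library total, with no TMM factor, and are set beside the others as values only. Its sections, of 10 to 18 spots, were also small.

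The genes higher in the rim of well B were few and of uneven size. The 9 supplied 0.286% of the rim UMIs of well B, 0.115% of those of well C and 0.083% of those of well D, and 1 of them, DJKW.7323, gave 75.3% of these UMIs in well B. Without it the shares were 0.0708%, 0.0207% and 0.0156%. The section median of well B exceeded those of wells C and D for 9 of 9, in the same counts that chose them. The only 1 of at least 100 CPM, DJKW.7323, had sections that overlapped. By section the share ran from 0.05% to 0.467% in well B, with a median of 0.203%. It ran with the number of spots of a section there (Spearman's rho 0.82 over 12 sections of 1 library, as a description), while rho was -0.32 in well C and -0.099 in well D. DJKW.7323 gave most UMIs of the 9 in the rims of all 3 wells, and rho without it was not computed. In well A the 9 took 0.104% of rim UMIs, but their median level there, on its library total with no TMM factor, was 122 CPM. That lay above the 86.5 CPM of well B, against 27.3 CPM in well C and 21.4 CPM in well D. Among spots with 1 or 2 tissue neighbours their share was 0.065% in well A and 0.082% in well B. With 3 neighbours it was 0.094% and 0.134%, and with 4 it was 0.096% and 0.532%. With 5 neighbours their share was 0.165% and 0.159%, and in the interior 0.127% and 0.121%. Their median log2 ratio in the interior was 1.75, with 8 of 9 of the same sign against both wells there and 5 at least 2-fold, but only 4 of the 9 reached 20 CPM in both zones. Of all gene models measured in the interior, 0.52% were at least 2-fold higher.

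DJKW.4076 was the first gene named on the high side. It gave 206 UMIs in the rim of well B, against 67 in well C and 66 in well D, or 116, 27.3 and 32.9 CPM. Its sections ranged from 0 to 399 CPM in well B with a median of 80.7, from 0 to 111 CPM in well C with a median of 22.3 and from 4.19 to 126 CPM in well D with a median of 13.97. The ranges overlapped, and 4 of 12 sections of well B stood above the highest of the other 24. The ratio of well B to well C was 4.27 (counting interval 3.23 to 5.72) and that to well D 3.54 (2.67 to 4.75). One section supplied 32.0% of the UMIs of this gene in the rim of well B and 1 spot 22.8%. Its mean log2 ratio was 1.92 over the whole rim, 1.43 on the left rim, 3.48 on the right rim and 4.30 away from the section ends. The right rim ratio set 137 CPM in well B against low levels of 7.33 in well C and 17.4 in well D. In the interior the gene stood at 43.3 CPM (24 UMIs) in well B. Well C had 3.92 CPM (7 UMIs) there and well D 4.66 CPM (7 UMIs), so these levels rest on few UMIs. In the rim of well A it stood at 36.1 CPM.

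DJKW.7323, the second, was an abundant gene that stood higher on the right rim than on the left in all 3 wells. It stood at 2007 CPM in the rim of well B, against 972 in well C and 700 in well D, with sections from 315 to 3843 CPM, from 262 to 2009 CPM and from 81.5 to 1623 CPM and medians of 1179, 848 and 492 CPM. Again 4 of 12 sections of well B stood above all others and the rest overlapped. On the right rim it stood at 4530 CPM in well B, against 2015 in well C and 1109 in well D. On the left rim the levels were 437, 336 and 425 CPM, and its mean log2 ratio there was 0.21, against 1.60 on the right rim and 1.28 over the whole rim. In the interior the levels of wells B and C were close, at 736 and 751 CPM, with 530 CPM in well D. In well A its rim level was 40.8 CPM. Its top spot held 14.2% of its UMIs in the rim of well B, against 7.53% in well C and 19.1% in well D.

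Outside the rule for naming, because its mean over the 3 wells was below 50 CPM, lay the single gene model at least 4-fold higher, DJKW.4074, chosen after its values were seen. It gave 196 UMIs in the rim of well B, against 3 in well C and 4 in well D, or 111, 1.22 and 1.99 CPM. The ratio of well B to well C was 90.8 (counting interval 30.6 to 444) and that to well D 55.6 (21.4 to 206). It was found in 12 of 12 sections of well B, from 9.74 to 417 CPM with a median of 63.3, in 3 sections of well C, at most 5.90 CPM, and in 3 sections of well D, at most 12.6 CPM. Thus 11 of 12 sections of well B stood above every section of wells C and D. It had a UMI in 46 of 151 edge spots of well B (30.5%, exact interval 23.2% to 38.5%), in 3 of 252 in well C (1.19%, 0.246% to 3.44%) and in 4 of 278 in well D (1.44%, 0.393% to 3.64%), and 1 spot of well B held 29.6% of its UMIs there. The interior gave 24 UMIs in well B, against 0 in well C and 1 in well D. Well A gave 76 UMIs in its rim, at 59.6 CPM. Over the 12 sections of well B its level ran with that of DJKW.4076, whose identifier has a nearby number (Spearman's rho 0.93, sections of 1 library). Where either lies in the genome, and whether they share sequence, is not given in the sources used here.

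Genes whose difference between wells was of another size at the rim than inside were looked for next. Of 4361 gene models with at least 20 CPM in both zones, 64 (1.47%) had a rim ratio at least 2-fold above their interior ratio against both wells and 19 (0.436%) one at least 2-fold below. These counts were 153 and 61 without well C and 101 and 38 without well D. For the 64 the median log2 ratio of well B over the others was -0.21 at the rim and -1.60 in the interior, and 51 of them were at least 2-fold lower in the interior of well B. For the 19 the medians were -0.34 at the rim and 1.05 in the interior, with 8 of them at least 2-fold higher in the interior of well B and none at least 2-fold apart from both wells at the rim. The rule chose both sets by these same ratios, so the values describe the choice. Of all 4361 gene models, 156 were at least 2-fold lower in the interior of well B than in both wells, and 19 were higher. DJKW.27803 stood at 45.8 CPM in the rim of well B, against 67.9 in well C and 92.7 in well D, and in the interior at 14.4, 135 and 218 CPM, with 8 UMIs in the interior of well B. DJKW.16351, also among the 93, stood at 89.3, 532 and 468 CPM in the rims and at 46.9, 1176 and 1549 CPM in the interiors. In well B both genes were thus lower inside than at the rim, in the reverse order to wells C and D, on levels scaled for each zone on its own. In the other direction DJKW.19714 stood at 66.1, 46.0 and 68.3 CPM in the rims of wells B, C and D and at 46.9, 10.6 and 12.7 CPM in their interiors. DJKW.17723 stood at 277, 371 and 553 CPM in the rims and at 242, 126 and 194 CPM in the interiors.

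Lists of genes set by place in well A alone gave another view of which genes made up the rim of well B. Of 77 measured genes that were at least 2-fold higher at the section ends than at the middle of the rim of well A, 51 stood below both wells in the rim of well B and 13 above both, while of all 5562 gene models 2116 stood below both and 1839 above both. Their median log2 ratio was -0.46, against -0.02 over all measured gene models, and 1 of them (1.30%) was among the 93, which is near the background of 1.67%. The 84 genes higher at the middle had a median of -0.06, with 8 (9.52%) among the 93. The 181 genes higher in the interior than at the edge of well A had a median of -0.02 and 12 (6.63%) among the 93, and the 155 genes higher at the edge had a median of -0.17 and 2 (1.29%) among the 93. The 173 genes higher on the right rim of well A had a median of -0.10 and 16 (9.25%) among the 93. The 175 genes higher on the left rim had a median of 0.18, with 0 among the 93 and 2 (1.14%) among the 9. Of the 9, 2 were in the right list (1.16% of that list) and 1 in the middle list (1.19%), against 0.162% of all measured gene models. These shares rest on 1 or 2 genes a list, and the left list held as many of the 9 as the right list. The interior, right and middle lists overlap, and 22 of the 93 were in at least 1 of these 3. The share of all measured gene models in at least 1 of them was not counted. The lists hold genes of at least 50 CPM in well A, and the median of the 9 in its rim was 122 CPM. All measured gene models were instead filtered on wells B, C and D. The share of the 93 rose with level, from 0.842% at 20 to 50 CPM to 4.67% above 500 CPM, and the list shares were not matched for level. The medians of the interior, right, left and middle lists changed sign under some settings, while those of the end and edge lists did not.

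Whole rim profiles of sections were then set side by side, each thinned to 56289 UMIs, over 1444 gene models of at least 100 CPM. Sections of well B resembled each other with a median Pearson's r of 0.834 over 66 pairs, less than those of well C (0.864) or well D (0.862). Sections of well B against those of well C gave a median of 0.793 and against those of well D 0.766, while sections of wells C and D gave 0.842 over 144 pairs. Each r is taken across genes, so its points depend on each other, and sections of 1 well share a library. For 11 of 12 sections of well B the most similar section lay in well B, as for 11 of 12 in well C and 12 of 12 in well D. Section 2 of well B, with 7 spots and 67946 edge UMIs, stood apart, with a median r of 0.704 to the other 11, and was the section with the highest level of the most abundant gene model. Without it the median within well B was 0.844, that against well C 0.796 and that against well D 0.771. At full depth the median SD between sections of log2(CPM + 1) was 0.46 in well B, against 0.27 in well C and 0.31 in well D, where sections of well B rest on fewer UMIs.

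**Figure D5:**
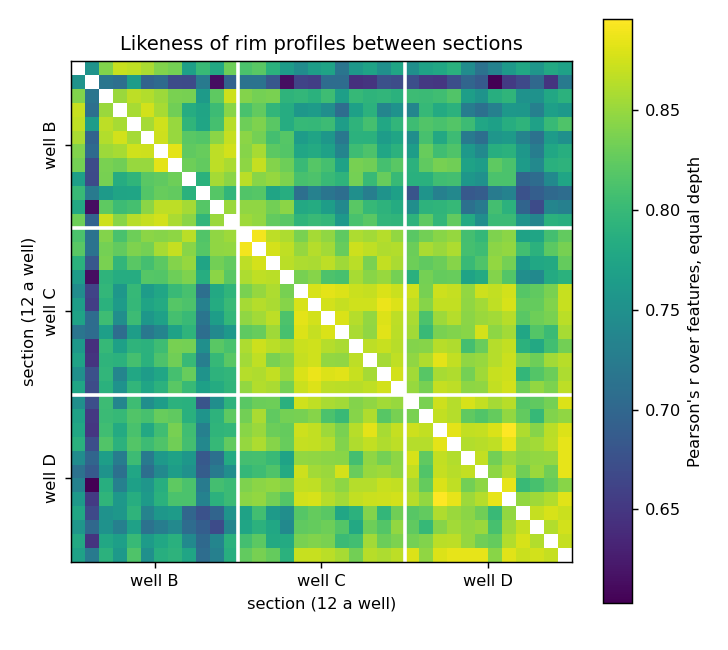
Pearson's r between the rim profiles of 36 sections, 12 each in wells B, C and D, at equal depth (colour); white lines separate the wells and the diagonal is left blank. The blocks within a well are brighter than those of well B against wells C and D, and section 2 of well B shows as a dark row and column.

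DJKW.19663, the most abundant gene model in the rims, stood at 34323 CPM in well B, against 42771 in well C and 58146 in well D. Its sections ranged from 23737 to 86707 CPM in well B with a median of 34110.0, from 27385 to 63802 CPM in well C with a median of 41729 and from 47782 to 82917 CPM in well D with a median of 58140.1, so the ranges overlapped. The highest section of well B was section 2, and 4 of its sections lay below the lowest of wells C and D. The 10 most abundant gene models took 11.8% of rim UMIs in well B, against 12.3% in well C and 13.7% in well D.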

How the data were processed

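RNA of planarian head blastema sections was captured on 4 Visium wells, each 1 library. The deposited matrices hold raw counts of UMIs per gene model and spot, made with Space Ranger 2.0.1 per the file headers; the submitters' processing notes also name Seurat. Neither genome build nor annotation is given in the sources used here.

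Tissue spots, neighbours on the 6-sided grid and sections of at least 5 connected spots were taken from the deposited positions. Tissue spots in smaller groups were left out. Counts of edge spots, and apart from them of interior spots, were summed per well and scaled with TMM factors from edgeR 4.0.16 in R 4.3.3. TMM factors were computed for each set of spots on its own. Levels of well A were scaled to its library total alone. Log2 ratios used CPM plus 1. A gene model was counted as different when at least 2-fold apart in the same direction against well C and well D, with a mean of at least 20 CPM. The named gene models were, per direction, the 2 with the largest smaller ratio among those of at least 50 CPM and with a UMI in at least 6 of 12 sections of well B (higher) or 12 of 24 sections of wells C and D (lower), for the rim and for the rim set against the interior, and the most abundant one. Section overlap used at least 100 CPM. Lists by place came from well A alone, at 2-fold and at least 50 CPM there. Ends were the outer 25% of a section's rows at either end. Barcodes come from a shared design: 70 barcodes of tissue spots recur between wells B and C and 19 between B and D. DESeq2 1.42.0 and edgeR's quasi-likelihood test served as alternatives. The rule, lists and named gene models were chosen with earlier results of these data known. Fewer cells of a type and less RNA per cell cannot be told apart.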

Additional observations from a re-analysis of the deposited data

How the results depend on the processing

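No gene model counted as higher at the rim was counted as lower in any alternative, or the reverse, and the log2 ratios of the 4 gene models named at the rim kept their sign in all 32 alternatives each. These 4 were chosen for large ratios in the same counts. The filters (5 CPM, 50 CPM and none) and leaving out the array border cannot change a ratio. Runs without 1 section share most spots with the main one, so the 32 are not separate checks. The ratio of DJKW.7323 ran from 0.21 (left rim) to 1.75, that of DJKW.4076 from 1.43 to 4.30, that of DJKW.7916 from -8.56 to -5.31 and that of DJKW.12131 from -7.04 to -4.04. The counts moved. The 9 higher gene models became 24 with library totals, 59 at 5 CPM, 3 at 50 CPM, 284 with no filter, 15 with the mean over sections, 5 with sections of at least 11 spots, 18 with 4 or 5 tissue neighbours, 50 with spots thinned to 2000 UMIs, 17 on the left rim, 37 on the right rim, 19 away from the ends, 24 with the 4 largest sections of well B and the 4 smallest of the others, and 1 at 4-fold. The 93 lower ones became 170 at 5 CPM, 327 with no filter, 200 thinned, 141 on the right rim and 42 at 4-fold. The number of gene models measured was 9250 at 5 CPM, 2831 at 50 CPM, 38792 with no filter and 5615 with spots thinned. Leaving out 1 well or 1 section of well B gave 6 to 44 higher (44 without well C, 17 without well D, 17 without section 9, 14 without section 11) and 90 to 211 lower (211 without well C). Fewer spots, counts or wells enter several of these; the cause was not tested beyond that. edgeR's quasi-likelihood test of 1 library against 2, which cannot estimate the spread of well B and borrows that of wells C and D, is no evidence on replicates of well B. It gave 3 higher and 30 lower at an adjusted p under 0.05, and 117 and 309 at an unadjusted p under 0.05.

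In the interior the 24 higher became 73 with totals, 142 at 5 CPM, 8 at 50 CPM, 76 without well C and 55 without well D, and the 178 lower became 431 at 5 CPM, 104 at 50 CPM, 280 without well C and 245 without well D. The 5 with all sections below became 3 with totals, 14 with sections of at least 11 spots, 35 without well C, 16 without well D and 3 at 200 CPM. The 64 with a rim ratio above the interior ratio became 328 at 5 CPM, 18 at 50 CPM, 153 without well C and 101 without well D. The 19 below became 135 at 5 CPM, 6 at 50 CPM, 11 with a pseudocount of 5 CPM, 61 without well C and 38 without well D.

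Median log2 ratios of the well A lists moved as follows. With totals they were -0.014 (edge), 0.13 (interior), 0.33 (left), 0.056 (right, reversed) and 0.088 (middle). The median over all measured gene models moved by a similar amount, from -0.02 to 0.13, so with totals the scale moved rather than the lists against it. With the mean over sections the list medians were 0.15 (interior), 0.061 (right, reversed) and 0.17 (middle). With sections of at least 11 spots they were -0.29 (interior), 0.10 (left), -0.30 (right) and -0.35 (middle). With 4 or 5 tissue neighbours they were -0.13 (interior), -0.028 (left, reversed), -0.14 (right) and -0.20 (middle). At 4-fold in well A they were -0.65 (edge), -0.063 (interior), 0.28 (left), -0.12 (right), -0.84 (ends) and 0.087 (middle). Without well C and without well D they were -0.30 and -0.13 (edge), -0.042 and -0.0059 (interior), 0.096 and 0.20 (left), -0.069 and -0.086 (right), -0.64 and -0.27 (ends), and -0.090 and 0.044 (middle). The alternatives with the 4 largest and smallest sections, with at least 500 UMIs a spot and without 1 section were chosen after seeing the data. Matching sections by size was not run, since too few sections of wells C and D are as small as those of well B. No edge spot lay on the array border. No paired analysis was possible because the wells form 1 group.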
